A study of Xenopus laevis with 8 samples.

Results

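The vessel endothelial marker genes are 7 genes of the *X. laevis* hindlimb bud, measured by 8 of 15491 probe sets and taken from 7531 gene symbols on the array. A probe set was a member if its annotated symbol, without the .L or .S ending, was kdr, flt1, tek, tie1, egfl7, fli1, erg, aplnr, tal1 or cdh5. *X. laevis* has a doubled genome, and .L and .S name the 2 copies of a gene. The rule found aplnr.L, aplnr.S, egfl7.S, fli1.S, flt1.L and tek.S, each with 1 probe set, and tal1.S with 2. No probe set with 1 symbol matched kdr, tie1 or cdh5, which were not analysed here. The gene erg was present only as erg-b on 1 probe set and as erg-b with erg.L on another. A RefSeq gene table lists erg-b as a synonym of erg.L, so these 2 probe sets are given beside the members and not counted among them.

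The limb buds came from stage 52 tadpoles after 24 h of exposure, to cyclopamine (1 μg/ml) in the treated tanks and to an equal volume of its solvent ethanol in the control tanks. Cyclopamine is a plant alkaloid that binds Smoothened and blocks Hedgehog signaling. Each of the 8 arrays, 4 cyclopamine and 4 ethanol, holds the RNA of 1 pool of 18 to 22 whole hindlimb buds, so that endothelial cells were measured together with all other cells of the bud. Cyclopamine array 1 and ethanol array 1 form pair 1, and so on to pair 4, and the arrays of a pair share a clutch, a day of exposure and a batch of RNA extraction. Pairs 3 and 4 are from clutch B and pairs 1 and 2 from clutch A. The median intensity of the arrays was between 191.6 and 221.

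Vessels of the limb bud are lined by endothelial cells, which enter the bud early and form a network before cartilage appears. Growth of this network is driven by vascular endothelial growth factor (VEGF), which binds receptor kinases such as kdr and flt1 on the endothelial surface. A second set of receptor kinases, tek and tie1, binds or modulates angiopoietins and steadies the vessel, and the apelin receptor aplnr marks growing and venous vessels. Inside the cell the ETS factors fli1 and erg and the basic helix-loop-helix factor tal1 switch on endothelial genes. The known roles of fli1 and tal1 extend to blood cells, and aplnr is also known from early mesoderm.

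Levels were read against the rest of the array in 2 ways. The first is the percentile of the deposited intensity among all probe sets of the same array. The second is a floor at an intensity of 43.7, the 20th percentile of all values, below which a value was taken as not separated from background. Of the 64 member values (8 probe sets on 8 arrays), 52 were above the floor and 12 were not. The share above it was 81.25%, against 80.0% for all probe sets, which the definition of the floor fixes. Of the 8 member probe sets, 6 were above the floor on all 8 arrays, and 70.5% of all probe sets were. Only the probe set of fli1.S was above the median of its array on every array.

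The receptor aplnr.L had deposited intensities of 62.8 to 195.4 with a median of 106.4, at percentiles 25.4 to 47.0 of the arrays. Its copy aplnr.S had intensities of 45.2 to 172.5 with a median of 103.0, at percentiles 21.1 to 45.7. Both apelin receptor copies were therefore in the lower part of the array on all 8 arrays, and the dimmest value of aplnr.S, on cyclopamine array 2, was just above the floor. The angiopoietin receptor tek.S had intensities of 71.1 to 145.0 with a median of 88.7, at percentiles 27.8 to 41.2.

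The VEGF receptor flt1.L had intensities of 7.5 to 40.2 in the array values as deposited, at percentiles 5.43 to 20.2. It was above the floor on 1 of the 8 arrays, ethanol array 3, and there by 0.01 on the log2 scale. Its probe set was thus at background in nearly every pool, and no fold change is given for it.

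The secreted factor egfl7.S, which endothelial cells release into their matrix, had intensities of 99.3 to 240.1 with a median of 168.2, at percentiles 35.4 to 52.4. The ETS factor fli1.S had intensities of 571.9 to 1147.6 with a median of 908.6, at percentiles 75.3 to 86.9. Its probe set was thus in the upper part of every array, although the brightness of a probe set also depends on its probes and does not rank RNAs of different genes.

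The 2 probe sets of tal1.S did not read alike. One had intensities of 42.0 to 90.8 and was above the floor on all 8 arrays after normalization. The other had intensities of 21.9 to 67.9 and was above the floor on 1 cyclopamine array and 2 ethanol arrays. Their log2 values were averaged with equal weight, so that tal1.S rests on 1 probe set near background and 1 that was mostly at the floor. Within pairs they differed in sign in pair 1, where the brighter probe set changed by 0.30 and the dimmer by -0.45 (log2, cyclopamine minus ethanol).

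**Figure D1:**
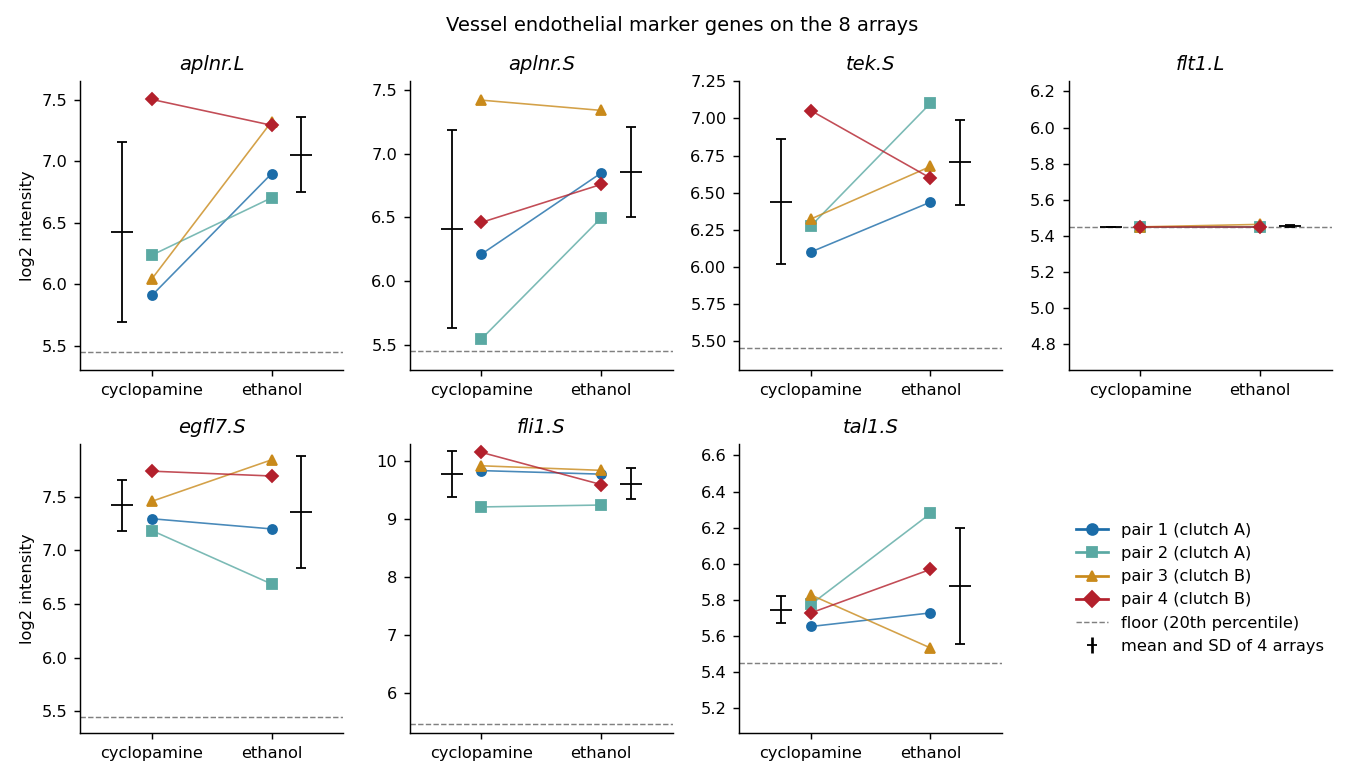
Log2 intensity of the 7 vessel endothelial marker genes in cyclopamine and ethanol limb buds, 4 arrays each. Points are arrays, coloured lines join the arrays of a pair, black bars give the mean and SD of 4 arrays, and the dashed line is the floor at 5.45. In aplnr.L and tek.S, the cyclopamine arrays of pairs 1 to 3 are below their ethanol partners and that of pair 4 is above, and flt1.L is at the floor. The vertical scale differs between panels.

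No member passed the comparison of cyclopamine with ethanol over all 8 arrays. With limma and Benjamini-Hochberg adjustment over 12380 genes or unnamed probe sets, 0 of 7 members had an adjusted p under 0.05, where 0.0162% of all tested did. At an unadjusted p under 0.05 the members also numbered 0 of 7, against 6.28% of all tested. The median log2 change of the members was -0.13, beside 0.00 for all tested, with 5 of the 7 lower and 2 higher. Since whole buds were measured, fewer endothelial cells and less RNA per cell cannot be told apart in any of these values.

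The largest negative difference among the members was that of aplnr.L, an apelin receptor copy. On cyclopamine arrays 1 to 4, aplnr.L was at 5.91, 6.24, 6.04 and 7.50 log2 units, and on ethanol arrays 1 to 4 at 6.90, 6.70, 7.32 and 7.29. The cyclopamine arrays of pairs 1 to 3 were below all 4 ethanol arrays, whereas cyclopamine array 4 was above all of them. The mean was 6.42 ± 0.73 in cyclopamine and 7.05 ± 0.30 in ethanol (SD, n = 4 each), a log2 difference of -0.63 with a standard error of 0.35 and an adjusted p of 0.874 in limma. A two-sided exact permutation test, with 70 ways to divide the arrays, gave a p of 0.171, and the smallest that this design allows is 0.0286.

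The other copy gave a different order of pools. On cyclopamine arrays 1 to 4, aplnr.S was at 6.21, 5.55, 7.42 and 6.46 log2 units, and on ethanol arrays 1 to 4 at 6.85, 6.49, 7.34 and 6.76. The groups overlapped, and cyclopamine array 3, which was low for aplnr.L, had the highest value of aplnr.S. The mean was 6.41 ± 0.78 in cyclopamine and 6.86 ± 0.35 in ethanol (SD, n = 4 each), a log2 difference of -0.45 with a standard error of 0.37 and a limma adjusted p of 0.931 (exact permutation p = 0.343). The size of this difference rested on single arrays, at -0.16 without cyclopamine array 2 and -0.78 without cyclopamine array 3. With the pair as a block, the adjusted p was 0.565 for aplnr.L and 0.566 for aplnr.S.

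The angiopoietin receptor tek.S was at 6.10, 6.27, 6.32 and 7.05 log2 units on cyclopamine arrays 1 to 4 and at 6.44, 7.10, 6.68 and 6.60 on ethanol arrays 1 to 4. As for aplnr.L, the 3 lowest values were those of cyclopamine arrays 1 to 3, and cyclopamine array 4 was near the top. The mean was 6.44 ± 0.42 in cyclopamine and 6.70 ± 0.29 in ethanol (SD, n = 4 each), a log2 difference of -0.27 with a standard error of 0.23 (limma adjusted p = 0.931, exact permutation p = 0.343).

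The remaining members showed smaller differences between the groups. The secreted factor egfl7.S was at 7.29, 7.18, 7.46 and 7.74 log2 units on cyclopamine arrays 1 to 4 and at 7.20, 6.69, 7.84 and 7.69 on ethanol arrays 1 to 4. The ethanol arrays enclosed the cyclopamine arrays, and the difference was 0.06 with a standard error of 0.26. The sign of that difference rested on single arrays, since it was -0.16 without ethanol array 2 and -0.04 without cyclopamine array 4.

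The factor fli1.S was at 9.84, 9.21, 9.92 and 10.16 log2 units on cyclopamine arrays 1 to 4 and at 9.78, 9.25, 9.85 and 9.60 on ethanol arrays 1 to 4. In pairs 1 to 3 the partners were within 0.08 of each other, so that cyclopamine array 4 stands out as the highest value and array 2 of either group as the lowest. The difference was 0.17 with a standard error of 0.22 (limma adjusted p = 0.938), and it was 0.35 without cyclopamine array 2 and 0.04 without cyclopamine array 4 or ethanol array 2. For tal1.S the values were 5.65, 5.78, 5.83 and 5.73 on cyclopamine arrays 1 to 4 and 5.73, 6.28, 5.53 and 5.97 on ethanol arrays 1 to 4, all close to the floor of 5.45, and the difference was -0.13 with a standard error of 0.16.

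The question of pair 4 was then taken up, whose response to cyclopamine was set against that of pairs 1 to 3. In pairs 1 to 3, aplnr.L and tek.S were lower in cyclopamine than in ethanol each time, and in pair 4 both were higher. The log2 change of aplnr.L was 0.21 in pair 4, against -0.99, -0.47 and -1.28 in pairs 1 to 3. The log2 change of tek.S was 0.46 in pair 4, against -0.34, -0.83 and -0.35 in pairs 1 to 3. A change of 1 sign in pairs 1 to 3 and of the other sign in pair 4 occurred in 2 of the 7 members and in 15.2% of all tested.

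The difference itself was tested in limma with a term for each pair. Pair 4 exceeded pairs 1 to 3 by 1.12 for aplnr.L (standard error 0.38, unadjusted p = 0.0501, adjusted p = 0.268) and by 0.96 for tek.S (standard error 0.28, unadjusted p = 0.0310, adjusted p = 0.231) on the log2 scale. The factor fli1.S, which had changed by 0.06, -0.03 and 0.08 in pairs 1 to 3, changed by 0.56 in pair 4, an excess of 0.52 with a standard error of 0.14 (unadjusted p = 0.0255, adjusted p = 0.218). With a floor at the 35th percentile the excess was 0.53 for aplnr.L and 0.55 for tek.S. The member count was 0 of 7 at an adjusted p under 0.05, as for all tested (0%), and 2 of 7 at an unadjusted p under 0.05 (fli1.S and tek.S), beside 18.7% of all tested.

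Not every member took part in this pattern. The change of aplnr.S was -0.30 in pair 4, against -0.64, -0.95 and 0.08 in pairs 1 to 3, an excess of 0.20. The change of egfl7.S was 0.04 in pair 4, against 0.09, 0.50 and -0.39 in pairs 1 to 3, an excess of -0.02. For tal1.S the change was -0.24 in pair 4, against -0.08, -0.50 and 0.29 in pairs 1 to 3. These values of tal1.S average its 2 probe sets. The brighter tal1.S probe set taken alone changed by -0.48 in pair 4, against 0.30, -0.39 and 0.12 in pairs 1 to 3. The median excess of pair 4 over the members was 0.20, beside 0.02 for all tested.

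The erg-b probe set had a wider contrast between pair 4 and pairs 1 to 3 than any member. ERG is an ETS factor of endothelial cells that keeps vessels quiescent in mammals. Which cells of the whole bud gave the erg-b signal was not tested. The erg-b probe set was at 6.36, 5.86, 6.96 and 7.92 log2 units on cyclopamine arrays 1 to 4 and at 8.16, 6.82, 7.94 and 6.40 on ethanol arrays 1 to 4. The probe set with both erg symbols was at 6.98, 6.49, 6.67 and 7.98 on cyclopamine arrays 1 to 4 and at 7.60, 6.64, 7.26 and 6.71 on ethanol arrays 1 to 4. On both, cyclopamine was below its ethanol partner in pairs 1 to 3 and above it in pair 4.

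The change of erg-b was 1.52 in pair 4, against -1.80, -0.96 and -0.97 in pairs 1 to 3, and the excess of pair 4 was 2.76 with a standard error of 0.44 (limma adjusted p = 0.167). The change of the shared probe set was 1.28 in pair 4, against -0.62, -0.15 and -0.59 in pairs 1 to 3, with an excess of 1.73 and a standard error of 0.27 (limma adjusted p = 0.167). These probe sets may read the same transcripts and are not independent. Over all 8 arrays their mean log2 differences were -0.55 and -0.02, with limma adjusted p of 0.937 and 0.996.

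**Figure D2:**
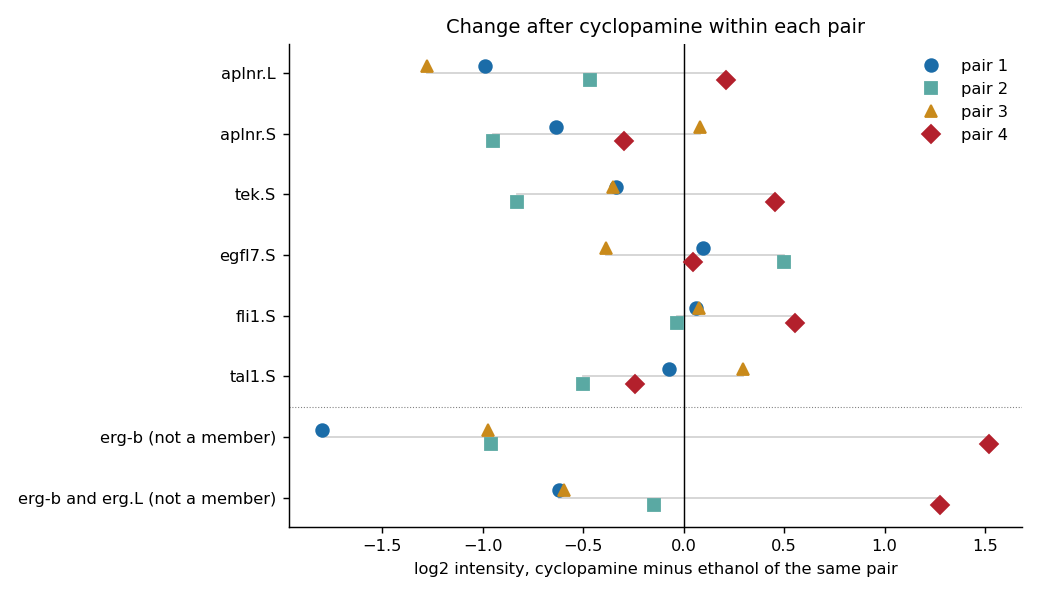
Log2 difference between the cyclopamine and the ethanol array of each pair for 6 member genes and, under the dotted line, the 2 erg probe sets that the rule did not take. Each symbol is 1 pair and the grey line spans the 4 pairs. For aplnr.L, tek.S and both erg probe sets, pairs 1 to 3 are left of zero and pair 4 is right of it, up to 1.52 for erg-b.

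The spread of all genes was also widest in pair 4. The SD of the within-pair change over all tested was 0.54 in pair 4, against 0.37, 0.41 and 0.34 in pairs 1 to 3. The median change of the members was 0.04 in pair 4, against -0.08, -0.47 and -0.01 in pairs 1 to 3. These medians include flt1.L, and that of pair 3 is the value of flt1.L itself, at the floor. Pair 4 is a single pair, so its own spread was taken to be that of the other pairs, and the test had 2 residual degrees of freedom per gene. Over all tested, deviations from the group means correlated at -0.10 between the arrays of pair 4, against 0.35, 0.51 and 0.30 in pairs 1 to 3.

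With pair 4 left out, 3 cyclopamine arrays were compared with 3 ethanol arrays. The cyclopamine arrays were below the ethanol arrays without overlap for 2 of the 7 members, aplnr.L and tek.S, which occurred in 5.27% of the 12229 genes or probe sets tested on these arrays. For aplnr.L the log2 difference was -0.92 (standard error 0.19, limma adjusted p = 0.773), and for tek.S it was -0.51 (standard error 0.19, limma adjusted p = 0.897). No member passed at an adjusted p under 0.05, where 0.0164% of all tested did, and the same 2 of 7 passed at an unadjusted p under 0.05, beside 5.45% of all tested. With a floor at the 35th percentile, a setting added after the data were seen, the differences on these 6 arrays were -0.32 for aplnr.L and -0.16 for tek.S.

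Clutch was the other labelled factor. Clutch B was compared with clutch A with treatment as a covariate. The level of egfl7.S was at 7.46 and 7.74 on the cyclopamine and 7.84 and 7.69 on the ethanol arrays of clutch B, against 7.29 and 7.18 on the cyclopamine and 7.20 and 6.69 on the ethanol arrays of clutch A. The lowest value of clutch B was 7.46 and the highest of clutch A 7.29. How many of all tested genes separate the clutches in this way was not counted. The mean was 7.68 ± 0.16 in clutch B and 7.09 ± 0.27 in clutch A (SD, n = 4 each), a log2 difference of 0.59 with a standard error of 0.16 and a limma adjusted p of 0.103. The same difference was 0.36 within the cyclopamine arrays and 0.82 within the ethanol arrays. Each clutch holds 2 pairs whose arrays share a day and an extraction, and the fit treats its 4 arrays as independent. With the pair as a random block, added after the data were seen, the limma adjusted p of egfl7.S was 0.0983. The within-pair correlation that this fit used for all genes was -0.016, so the block changed little. It does not remove the limit that each clutch rests on 2 pairs.

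The apelin receptor copies had differences of 0.72 (aplnr.S, limma adjusted p = 0.207) and 0.60 (aplnr.L, limma adjusted p = 0.279) between clutch B and clutch A, with overlapping arrays. The value of aplnr.L was 0.30 without cyclopamine array 4. The differences were 0.36 for fli1.S, 0.18 for tek.S and -0.09 for tal1.S. For tek.S and tal1.S the sign differed between treatments, at 0.50 and 0.06 within the cyclopamine arrays and -0.13 and -0.25 within the ethanol arrays. No member passed at an adjusted p under 0.05, where 1.28% of all tested did. At an unadjusted p under 0.05, egfl7.S and aplnr.S passed, 2 of 7, beside 21.9% of all tested. The median of the members was 0.36, beside -0.01 for all tested.

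Covariation was measured over the 8 arrays for the 6 members above the floor on all of them, which gives 15 gene pairs. The median Pearson r was 0.27, with 10 gene pairs above zero and 5 below, and a range of -0.66 to 0.71. All pairs of the 9765 tested genes or probe sets above the floor on 8 arrays had a median r of 0.00 and quartiles of -0.37 and 0.37. After the treatment means were removed the median of the members was 0.12, and with the values as deposited it was 0.31. The arrays of a pair or of a clutch are not independent, and 4 arrays per clutch are too few for values within a clutch.

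The receptors aplnr.L and tek.S had the highest r, 0.71, with a Spearman rho of 0.74 (exact permutation p = 0.0538 and 0.0458, adjusted over the 15 gene pairs 0.377 and 0.344). Without the 2 arrays farthest from the median of aplnr.L the r was 0.47. Next were egfl7.S and fli1.S with an r of 0.69 and a rho of 0.74 (exact permutation p = 0.0610 and 0.0458, adjusted 0.377 and 0.344), and 0.52 without the 2 farthest arrays. No gene pair had a Pearson p under 0.05 in the exact permutation test over 8 arrays. Other gene pairs had a higher r without the 2 arrays farthest for the first gene of the pair, at 0.86 for aplnr.L with fli1.S (0.27 over 8 arrays), 0.78 for egfl7.S with tek.S (-0.04) and 0.75 for aplnr.L with egfl7.S (0.50). The median over the 15 gene pairs was then 0.46, so that the values of single gene pairs rest on few arrays.

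The 2 copies of the apelin receptor had an r of 0.28 and a rho of 0.19 over the 8 arrays (exact permutation p = 0.501 and 0.665), and an r of 0.73 without the 2 farthest arrays. The gene nearest to the floor of these 6, tal1.S, had negative values with 4 of the 5 other members, the lowest with egfl7.S at -0.66 (rho = -0.45, exact permutation p = 0.0754 and 0.267). That value turned to 0.49 without the 2 arrays farthest from the median of egfl7.S.

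**Figure D3:**
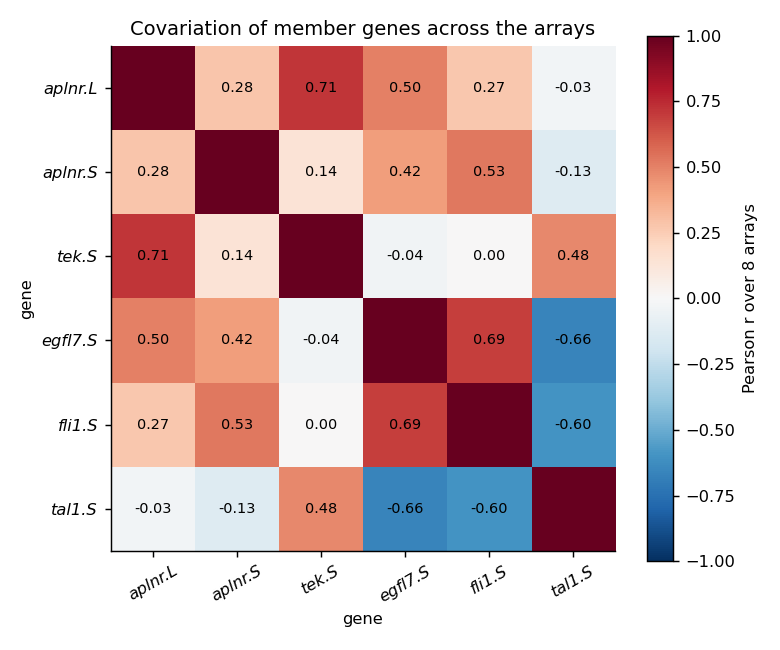
Pearson r between member genes over the 8 arrays, from blue at -1 to red at 1, with each value printed in its cell. The highest value is 0.71 between aplnr.L and tek.S and the lowest is -0.66 between egfl7.S and tal1.S.

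A common profile was formed as the mean of the mean-centred, unscaled log2 values of these 6 genes. Its r with these genes, which are part of it, was 0.83 for aplnr.L, 0.71 for aplnr.S and 0.64 for egfl7.S. It was 0.62 for tek.S, 0.59 for fli1.S and -0.09 for tal1.S, so that tal1.S did not share the profile. The profile was at -0.31, -0.44, 0.03 and 0.30 on cyclopamine arrays 1 to 4 and at 0.01, -0.06, 0.29 and 0.18 on ethanol arrays 1 to 4. The lowest values were those of the cyclopamine arrays of clutch A and the highest that of cyclopamine array 4, close to ethanol array 3. Among 5875 other named genes above the floor on all 8 arrays, those most like it were scmh1.L (r = 0.98), MGC82989 (0.97), ddx46.L (0.97), nrf1.S (0.96) and eif2s2.S (0.96). These are the top of a long ranking over 8 arrays, given as a description.

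A list of ligands and co-receptors of the same pathways, which also held the receptor calcrl.L, was poorly covered, with 5 genes annotated and 3 tested. The receptor calcrl.L, which responds to adrenomedullin on endothelial cells, had a mean of 7.23 ± 0.34 in cyclopamine and 6.77 ± 0.18 in ethanol (SD, n = 4 each), higher in 4 of 4 pairs, with a log2 difference of 0.46 and a limma adjusted p of 0.740. The VEGF co-receptor nrp1.L differed by 0.08 with a standard error of 0.44. The ligand vegfa.L was above the floor on 2 of 8 arrays. None of the 3 passed at an adjusted p under 0.05, and calcrl.L alone had an unadjusted p under 0.05 (0.0319), beside 6.28% of all tested.

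Other endothelial genes were taken from a list of 50 symbols, of which 16 were annotated, giving 20 genes, 18 of them tested. None passed at an adjusted p under 0.05 in limma. At an unadjusted p under 0.05 there was 1 gene higher and 1 lower, beside 6.28% of all tested, and the median log2 difference was 0.02. The gene that was higher was efnb2.S, the arterial ephrin ligand, with a difference of 0.53 (standard error 0.20, adjusted p = 0.741). The gene that was lower was ets1.L, an ETS factor of angioblasts. It had means of 5.93 ± 0.06 in cyclopamine and 6.28 ± 0.11 in ethanol (SD, n = 4 each), not far above the floor of 5.45. It was lower in each pair, by 0.24 in pair 4 and 0.45, 0.35 and 0.37 in pairs 1 to 3 (adjusted p = 0.558). Its copy ets1.S changed by 0.44 in pair 4, against -1.10, 0.03 and -0.22 in pairs 1 to 3.

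Defining markers of endothelium were therefore measured beyond the members. The adhesion molecule pecam1.L was above the floor on all 8 arrays, and its group means differed by 0.02 with a standard error of 0.23. The tight junction gene cldn5.S differed by -0.24 and the venous receptor ephb4.L by 0.02, neither past the threshold (limma adjusted p = 0.893 and 0.994). In pair 4 pecam1.L changed by 0.60, against 0.19, -0.62 and -0.08 in pairs 1 to 3, and ephb4.L by 0.20, against 0.13, -0.19 and -0.07. Over the list of other endothelial genes, the changes in pair 4 were of either sign. The venous factor nr2f2.L changed by 1.07 in pair 4, against -0.22, -0.43 and -0.48 in pairs 1 to 3.

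The junction gene cldn5.L changed by 1.13 in pair 4, against -0.33, -0.14 and -0.26 in pairs 1 to 3, whereas its copy cldn5.S changed by 0.01 in pair 4, against -0.03, -0.81 and -0.12. The vessel factor sox18.L changed by 1.20 in pair 4, against -0.26, -0.88 and 0.04 in pairs 1 to 3, and sox18.S by 1.19, against -0.12, -0.11 and 0.22. In the opposite direction, the flow-responsive factor klf2.S changed by -1.62 in pair 4, against -0.17, 0.02 and 0.83 in pairs 1 to 3. The factor sox7.L changed by -1.82 in pair 4, against 0.02, 0.54 and -0.06 in pairs 1 to 3. In the pair 4 comparison 4 of the 18 genes had an excess and 2 a deficit with an unadjusted p under 0.05, beside 18.7% of all tested in either direction, and the median excess was 0.28, beside 0.02 for all tested.

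**Figure D4:**
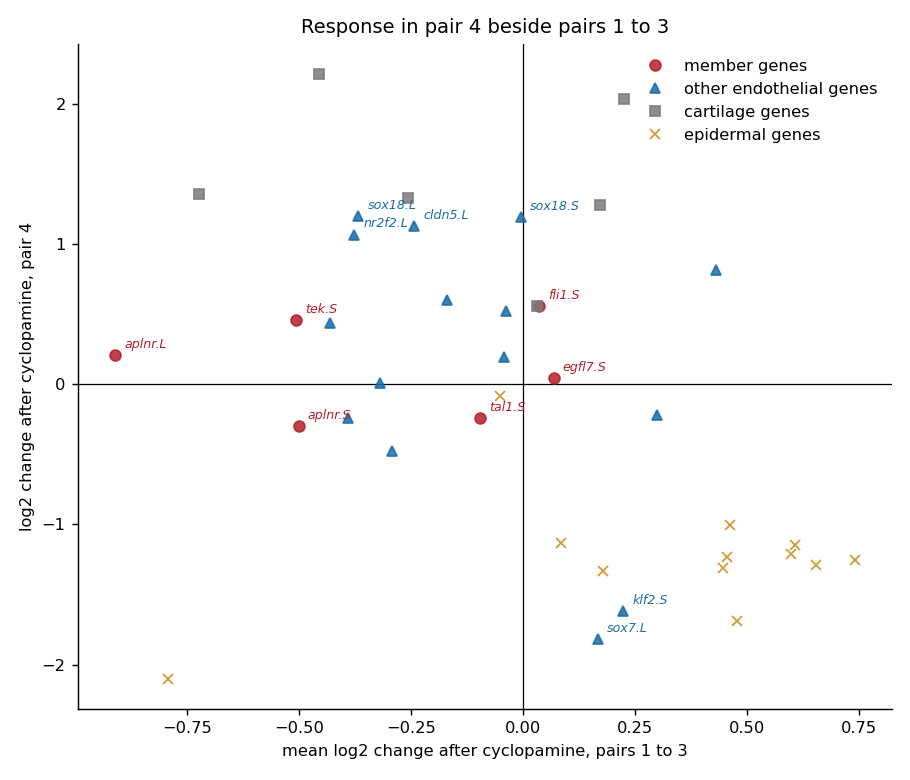
Log2 change after cyclopamine in pair 4 (vertical axis) beside the mean change in pairs 1 to 3 (horizontal axis). Each symbol is 1 gene above the floor on all 8 arrays, of the members, other endothelial genes, cartilage genes or epidermal genes. Among the members, aplnr.L and tek.S are upper left, while cartilage genes are above zero in pair 4 and all epidermal genes below.

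Markers of other cell types differed between the pools as well, and for cartilage, epidermis and muscle the median change was widest in pair 4. The mean log2 intensity of 7 cartilage genes, of 7 annotated, was 8.36, 8.20, 8.50 and 9.45 on cyclopamine arrays 1 to 4, against 8.56, 8.35, 8.59 and 8.19 on ethanol arrays 1 to 4. The median change of these genes was 1.33 in pair 4, against -0.20, -0.12 and 0.00 in pairs 1 to 3. Summed over the list, the log2 values were 57.4 to 66.1 in cyclopamine and 57.3 to 60.1 in ethanol, and 6 of the 7 genes were above the floor on all 8 arrays, while matn1.L was on 1. Cyclopamine array 4, where aplnr.L, tek.S, fli1.S and erg-b were at or near their highest values, thus also had the highest cartilage level.

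For epidermis, 14 tested genes of 15 annotated had mean levels of 8.29, 9.15, 8.77 and 7.87 on cyclopamine arrays 1 to 4, against 8.01, 8.54, 8.71 and 8.95 on ethanol arrays 1 to 4. Their median change was -1.22 in pair 4, against 0.45, 0.57 and 0.14 in pairs 1 to 3, and the sums of the log2 values were 110.2 to 128.1 in cyclopamine and 112.1 to 125.3 in ethanol. Of these genes 12 were above the floor on all 8 arrays, and tp63.L was on 3. The sign of the list median was the reverse of that of aplnr.L, tek.S and erg-b in all 4 pairs. In each of pairs 1 to 3 the list held genes of either sign. The members aplnr.S, egfl7.S, fli1.S and tal1.S did not have the signs of aplnr.L and tek.S in all pairs. Muscle genes, 21 tested of 22 annotated, had median changes of 0.90 in pair 4 and 0.00, 0.62 and -0.08 in pairs 1 to 3, with sums of 145.4 to 170.5 in cyclopamine and 143.9 to 166.3 in ethanol. The part of cartilage, epidermis and muscle in the values of the members and of the erg-b probe sets was not tested.

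Blood cells share fli1 and tal1 with endothelium. Red cell genes, 12 tested of 13 annotated, had mean levels of 9.42 to 9.60 in cyclopamine and 9.43 to 9.80 in ethanol, with sums of 113.1 to 115.2 in cyclopamine and 113.2 to 117.6 in ethanol and a median change of -0.12 in pair 4 and 0.07, -0.01 and -0.07 in pairs 1 to 3. Genes of white cells and thrombocytes, 9 tested of 14 annotated, had mean levels of 7.01 to 7.63 in cyclopamine and 6.87 to 7.49 in ethanol, with sums of 63.1 to 68.6 in cyclopamine and 61.8 to 67.4 in ethanol and a median change of -0.17 in pair 4 and 0.29, 0.12 and 0.00 in pairs 1 to 3. On all 8 arrays, 9 of the red cell and 8 of the white cell genes were above the floor. In pair 4 the median changes of both blood lists were negative, with genes of either sign in each list. The part of blood cells in the values of fli1.S and tal1.S was not tested. Mean levels of nerve and glial genes, 13 tested of 18 annotated, were 7.06 to 7.45 in cyclopamine and 7.04 to 7.49 in ethanol, with a median change of 0.14 in pair 4 and -0.07, 0.00 and -0.28 in pairs 1 to 3.

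Markers of cells that wrap vessels were poorly covered, with 6 of 15 listed symbols annotated, and most of their values were near the floor. Of 7 genes of mural and smooth muscle cells, 1 was above the floor on all 8 arrays, acta2.L, the smooth muscle actin, which changed by 0.76 in pair 4, against -0.19, -1.02 and -0.64 in pairs 1 to 3. The pericyte gene rgs5.S, above the floor on 7 of 8 arrays, changed by 0.12 in pair 4, against -0.43, -0.17 and -0.10 in pairs 1 to 3. Its means of 5.67 in cyclopamine and 5.82 in ethanol were close to the floor of 5.45. Its r with the common profile of the members was 0.91, and that of acta2.L was 0.60. The other 5 genes of the list were above the floor on 1 to 3 arrays, among them cnn1.S with an r of -0.58, and the median change of the list was 0.00 in pair 4 and 0.00, -0.16 and 0.00 in pairs 1 to 3. Neither acta2.L nor rgs5.S passed the comparison of cyclopamine with ethanol (limma adjusted p = 0.937 and 0.932).

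**Figure D5:**
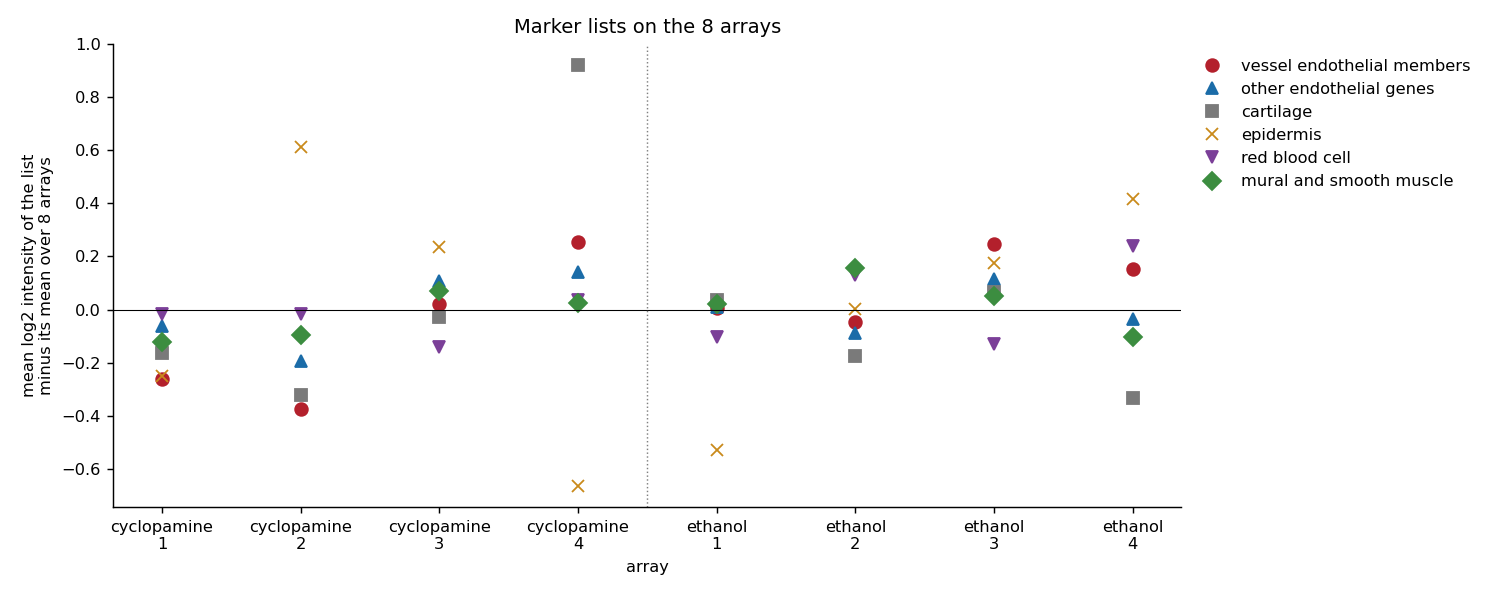
Mean log2 intensity of the vessel endothelial members and of 5 other marker lists on each of the 8 arrays, as the deviation from the mean of the list over all arrays. Cyclopamine arrays are left of the dotted line and ethanol arrays right of it. Cyclopamine array 4 has the highest cartilage and the lowest epidermal level.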

How the data were processed

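Per the labels and the methods, 8 Affymetrix *X. laevis* arrays were hybridized, each with RNA of 1 pool of limb buds. The intensities that the authors deposited are on a linear scale, 1 value for each probe set. Their background correction, summarization and normalization are not stated in the labels or the methods. Their 2% trimmed mean was 500.07 to 500.08 on every array, so the values as deposited were already scaled to a common level. The authors selected the samples from a larger set of pairs by quantity and quality of RNA. Controls (120 of 15611 probe sets) were removed, and symbols were taken from the array annotation, which gave 9304 probe sets 1 symbol, 195 several and 5992 none. Genome positions were left out because the array has no named build. How far a probe set reads the other copy of a gene was not tested.

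After quantile normalization, values under the 20th percentile (43.7) were raised to it and log2 was taken. Probe sets with the same symbol were averaged, .L and .S separately, and 1338 of 13718 genes or probe sets that never exceeded the floor were dropped. The main fit was unblocked, in limma 3.58.1 (R 4.3.3), with Benjamini-Hochberg adjustment over all 12380 tested and a threshold of 0.05. Single genes were also compared by exact permutation. Pair 4 was tested with a term for each pair. The number of arrays limits the precision.

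Within-pair correlations of deviations from the group means were 0.35, 0.51 and 0.30 for pairs 1 to 3 and -0.10 for pair 4. In pairs 1 to 3 the own partner was the best match by this correlation, and in pair 4 it was not. The replicate numbers were treated as pairing the samples, since clutch, day and extraction are common to a pair according to the methods. Alternative settings covered blocks for pair or clutch, scaling, floor, filter, the handling of several probe sets, the methods' t-test and leaving out each array. A random block for pair in the clutch comparison, and the higher floor together with leaving out pair 4, were added after seeing the data.

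The members, the gene lists and the question of pair 4 were chosen with earlier results of these data known. The genes named are all members, the 5 most like their common profile, the ligand list, and up to 4 genes of highest mean intensity of each other list. Some genes that the rule takes are left out here. Outside the rule, and picked with their values in view, are the erg-b probe sets, ets1.L, pecam1.L, cldn5.L, sox18.L, sox18.S, klf2.S, sox7.L, ets1.S, matn1.L and tp63.L.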

Additional observations from a re-analysis of the deposited data

How the results depend on the processing

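Of the 6 members above the floor on all 8 arrays, none passed the adjusted threshold under any alternative run that gave its value, in the treatment, pair 4 or clutch comparison. The gene flt1.L was not followed across all of these runs. For tal1.S no value was taken at a floor of the 35th percentile or with each probe set on its own. Over all genes, the treatment comparison called 2 as reported and 2 with the pair as a replicate block, 4 with the clutch as a block, 1 with the methods' t-test, 1 without pair 4 at a floor of the 35th percentile, and 1 to 2 when single arrays were left out; the replicate block changed no call of a member. The clutch comparison called 159 and, with the pair as a random replicate block, 176, against 64 with a floor at the 10th percentile, 332 at the 35th, and 23 to 85 when single arrays were left out. The pair 4 comparison called 0 in every setting and cannot be made without a pair 4 array. The sign of some small differences turned. With single arrays left out, the treatment difference ranged from -0.16 to 0.22 for egfl7.S and from -0.24 to 0.0018 for tal1.S. With single pairs left out, the excess of pair 4 ranged from -0.019 to 0.48 for aplnr.S, from -0.25 to 0.19 for egfl7.S and from -0.36 to 0.049 for tal1.S. It was 0.055 for egfl7.S with the values as deposited and -0.064 for aplnr.S with a floor at the 35th percentile. For tal1.S the excess was -0.49 with the brightest probe set and -0.59 with a floor at the 10th percentile. The clutch difference of tek.S was -0.0078 with a floor at the 35th percentile. It ranged from -0.027 to 0.39 with single arrays left out, and that of tal1.S from -0.17 to 0.048. The other directions of these 6 members were kept in all settings that gave their values. The treatment difference of aplnr.L was -0.996 without cyclopamine array 4 (adjusted p = 0.546), and its adjusted p was 0.546 to 0.986 over all alternatives. A floor at the 35th percentile made the treatment differences over the 8 arrays much smaller. They were then -0.19 for aplnr.L, -0.05 for aplnr.S and -0.02 for tek.S, against -0.63, -0.45 and -0.27 as reported. The dim members, flt1.L and tal1.S above all, are limited by signal over background.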
